A study of Arabidopsis thaliana with 6 samples.

Results

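Plastid ribosomes of Arabidopsis thaliana are built from proteins of mixed origin. Some are encoded in the plastid genome and the rest in the nucleus, from where they are imported. The genes described here are 37 nuclear genes for plastid ribosomal proteins, a list that leaves out at least RPL12-B. They were taken by their identifiers from the 36917 genes of the count tables, and no measured value enters the rule. They comprise 23 proteins of the large (50S) subunit, 9 of the small (30S) subunit and 5 proteins listed as plastid-specific. The genes lie on all 5 nuclear chromosomes, with 12 on chromosome 1, 5 on chromosome 2, 11 on chromosome 3, 1 on chromosome 4 and 8 on chromosome 5.

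RNA was sequenced from whole 6-day-old seedlings grown on half-strength MS medium with 1% sucrose, under 16 h of light and 8 h of darkness. Wild-type Col-0 was compared with a knock-down line of MTERF2, and each genotype had 3 independent biological replicates. MTERF2 encodes a plastid member of the mTERF family of nucleic acid-binding proteins, and the mutant carries an artificial microRNA against its transcript. The mutant libraries came from 1 line, amiR1-3-mterf2 per the study's text, so the comparison is with a knock-down, not a knock-out, in a single line.

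Each plastid ribosome resembles that of bacteria: the small subunit reads the messenger RNA, the large subunit joins amino acids, and a flexible stalk of L12 proteins recruits the translation factors. In leaves these ribosomes make the plastid-encoded core subunits of the photosystems and the large subunit of Rubisco. Nuclear and plastid genes therefore both contribute to the same particle.

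Between 18004935 and 21832003 counts per library fell on genes, of which plastid genes took 58.7 to 62.0%. Levels are given as CPM, the counts scaled to a common library size after TMM factors. TMM is a scaling that assumes that most genes do not change. Col-0 replicate 2 stood apart from the other Col-0 libraries (mean chi-square per gene of 25.2 and 24.3 against them, compared with 3.03 between Col-0 replicates 1 and 3 and 3.35 to 3.58 between amiR-mterf2 libraries). Root hair markers were nearly confined to it: the 6 root hair genes EXPA7, EXPA18, COBL9, PRP3, RSL4 and RHD6 summed to 47.9 CPM there, to 1.41 and 1.50 CPM in the other Col-0 libraries and to at most 0.234 CPM in the mutant. The summed level of 5 endodermal CASP genes was 38.1 to 45.1 CPM in Col-0 and 14.8 to 17.4 CPM in amiR-mterf2. Of these root markers, 6 could be tested and all 6 fell, compared with 18.2% of all tested genes. Genes with few mutant counts could pass the filter on low counts through Col-0. With at least 10 counts in every library, 4 could be tested and 4 fell. In DESeq2's Wald test 5 of 6 fell, and without amiR-mterf2 replicate 2 or 3, 5 of 7. The summed level of 17 green shoot markers was 30231, 41977 and 30983 CPM in Col-0 and 36804 to 37210 CPM in the mutant. Of the 17, 2 rose and 4 fell, against 18.1% and 18.2% of all tested genes. Without Col-0 replicate 2, 8 rose, against 22.1% of all genes, and 4 fell. In such whole-seedling RNA, a smaller share of cells of a type and less RNA per cell cannot be told apart. The part of tissue make-up in the results below was not tested, so the main counts are also given without Col-0 replicate 2.

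The targeted gene had few counts. MTERF2 (AT2G21710) reached 2.25, 1.80 and 2.71 CPM in Col-0 and 1.87, 0.78 and 0.43 CPM in amiR-mterf2. The first mutant replicate lay above the second Col-0 library, so the groups overlapped, and the log2 difference of -1.15 ± 0.48 (SE) had an adjusted p of 0.084 in edgeR's quasi-likelihood test. The value moved with single libraries: it was -1.29 without Col-0 replicate 2 (adjusted p = 0.0265), -1.88 without amiR-mterf2 replicate 1 (adjusted p = 0.015) and -0.78 without amiR-mterf2 replicate 3 (adjusted p = 0.235, all in edgeR's test).

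Nuclear genes for plastid ribosomal proteins were higher in amiR-mterf2 throughout the set. Of the 36 that could be tested, 35 rose and 0 fell (p from edgeR's quasi-likelihood F-test, adjusted by Benjamini-Hochberg across the 17902 genes tested, under 0.05), compared with 18.1% of all tested genes that rose and 18.2% that fell. The median log2 difference was 0.71, with a range of 0.29 to 1.48, while that of all genes was -0.015. In 36 of 36 tested members, all 3 mutant libraries lay above all 3 Col-0 libraries, which was the case for 25.0% of all tested genes. No member passed the filter on low counts through 1 genotype only, since the lowest level of a tested member in any library was 5.52 CPM. Summed over the 37 members, the level was 2295, 2378 and 2279 CPM in Col-0 and 4089, 3937 and 4090 CPM in amiR-mterf2, a ratio of means of 1.74. Both groups were tight compared with the distance between them. As a share of the counts on nuclear genes alone, with no TMM scaling, the set took 0.614% ± 0.004 in Col-0 and 0.966% ± 0.018 in amiR-mterf2 (mean ± SD, n = 3 each).

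**Figure D1:**
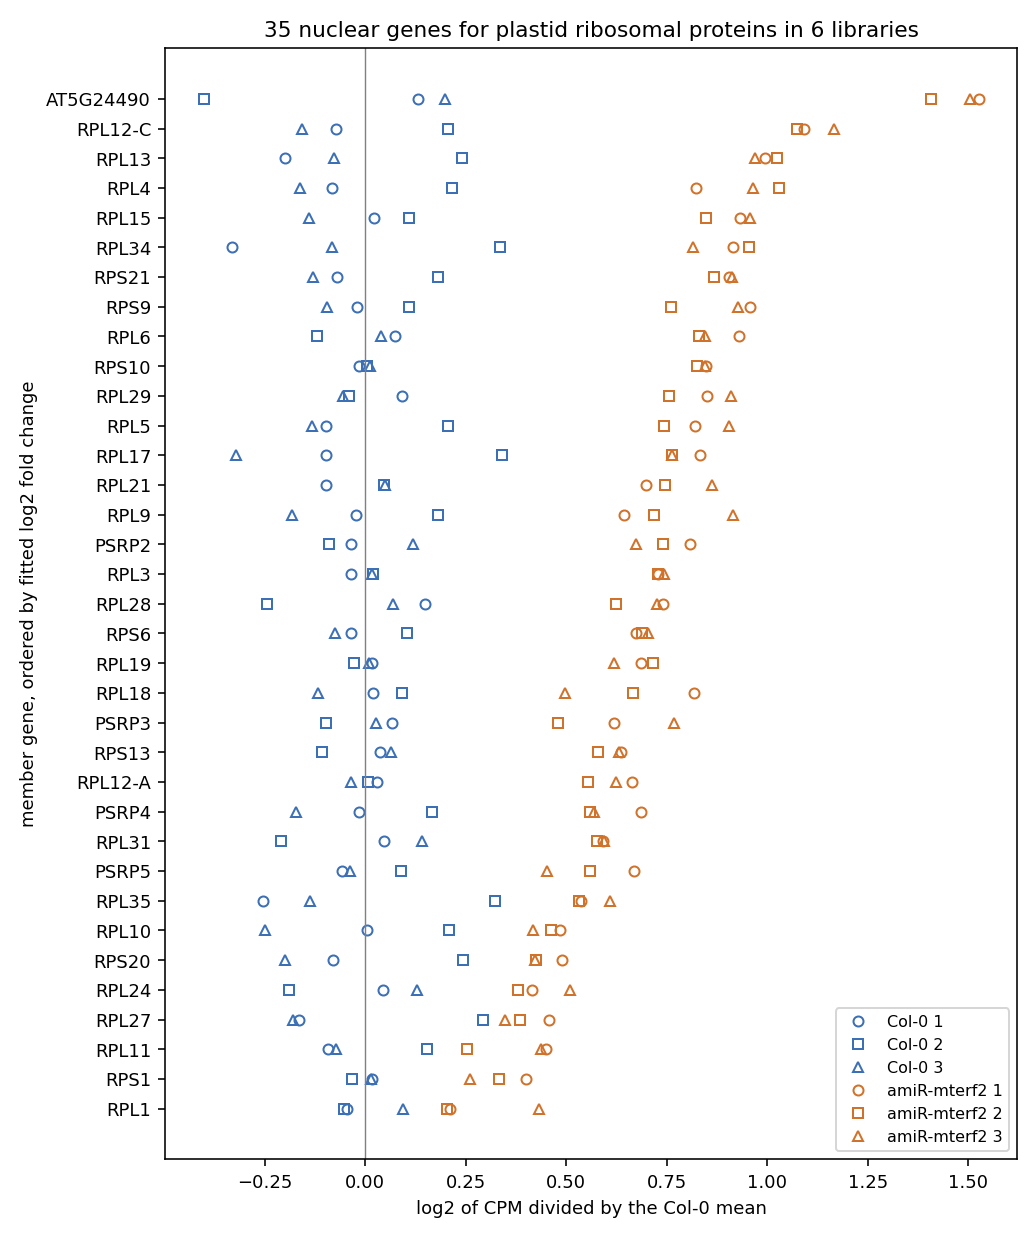
Level of 35 of the tested members in each library, as the log2 of CPM divided by the Col-0 mean of that gene (x axis), with genes ordered by their fitted log2 fold change. Blue symbols are Col-0 and orange symbols amiR-mterf2, and circles, squares and triangles are replicates 1, 2 and 3; in every row the orange symbols lie to the right of the blue ones, from RPL1 at the bottom (0.29) to AT5G24490 at the top (1.48).

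The rise did not hinge on Col-0 replicate 2. That library was the highest Col-0 library for 21 of the 36 tested members and the lowest for 11. Without it, 36 of 36 members rose, against 22.1% of all genes, and their median difference was 0.75 on the log2 scale. The scaling mattered more. With total counts in place of TMM the median of all genes moved from -0.015 to -0.17, and 29 of 36 members rose against 11.9% of all genes. The balance of all calls moved with it, from 3248 higher and 3261 lower to 2129 higher and 4148 lower. A change of scaling shifts every gene by nearly the same amount. The members' median relative to that of all genes, 0.73 on the log2 scale, therefore could hardly differ between the scalings.

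The large subunit contributed 22 of 23 members that rose, with a median log2 difference of 0.73. Its summed level was 1405, 1520 and 1393 CPM in Col-0 and 2409, 2352 and 2445 CPM in amiR-mterf2. The widest differences among large-subunit genes were those of RPL12-C, RPL13, RPL4, RPL15 and RPL34.

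RPL12-C (AT3G27850, chr3:10324788-10325746 in TAIR10.1, plus strand) encodes a copy of the L12 stalk protein. Its levels were 80.8, 98.1 and 76.3 CPM in Col-0 and 181, 179 and 191 CPM in amiR-mterf2. The mutant libraries were all well above the Col-0 libraries, and the log2 difference was 1.11 ± 0.12 (SE), with an adjusted p of 3.2e-05 in edgeR's test. RPL12-A (AT3G27830, chr3:10318455-10319920, plus strand) encodes a second copy of the stalk protein and lies close by on the same chromosome. It was at 100.5, 99.0 and 96.0 CPM in Col-0 and at 156, 145 and 152 CPM in amiR-mterf2. The groups did not overlap, and the log2 difference was 0.61 ± 0.10 (SE, adjusted p = 0.00055 in edgeR's test).

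The pair thus shifted in balance. The ratio of RPL12-C to RPL12-A was 0.80, 0.99 and 0.79 in Col-0 and 1.16, 1.24 and 1.26 in amiR-mterf2, without overlap. A two-sided exact permutation test gave p = 0.1, the smallest value that 3 libraries against 3 allow; the ratio was chosen after the values were seen. This ratio carries a limit, because the coding sequences of RPL12-A and RPL12-C, of 576 and 564 bases, are identical at 91.1% of aligned positions and share the last 255 bases without a mismatch. Reads within that stretch match both genes equally, and how they were counted is not given in the sources used here. The shared stretch is shown because it sets this limit. It lies at chr3:10318897-10319151 in RPL12-A and chr3:10325214-10325468 in RPL12-C, plus strand, in TAIR10.1, and ends with the stop codon.
RPL12-A and RPL12-C: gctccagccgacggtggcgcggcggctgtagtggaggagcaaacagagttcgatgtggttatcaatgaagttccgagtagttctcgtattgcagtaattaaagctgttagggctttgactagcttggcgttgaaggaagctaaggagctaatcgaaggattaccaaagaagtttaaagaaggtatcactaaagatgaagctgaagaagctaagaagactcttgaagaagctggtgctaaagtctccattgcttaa
The remaining gene of this cluster, RPL12-B (AT3G27840), is not among the 37 genes. It was listed at 0 counts in all 6 libraries, and its coding sequence shares no run of more than 20 bases with either neighbour.

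RPL13 (AT1G78630) encodes a homologue of a protein that binds early during assembly of the bacterial large subunit. It was at 53.3, 72.4 and 58.0 CPM in Col-0 and at 122, 125 and 120 CPM in amiR-mterf2. Every mutant library exceeded the highest Col-0 library, and the log2 difference was 1.00 ± 0.13 (SE, adjusted p = 0.00012 in edgeR's test). RPL4 (AT1G07320), whose bacterial homologue lines the exit tunnel of the nascent chain, was at 48.8, 60.1 and 46.3 CPM in Col-0 and at 91.5, 106 and 101 CPM in amiR-mterf2. Again the groups were separate, with a log2 difference of 0.94 ± 0.12 (SE, adjusted p = 0.00017 in edgeR's test).

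RPL15 (AT3G25920) was at 70.5, 74.9 and 63.1 CPM in Col-0 and at 132, 125 and 135 CPM in the mutant. Its replicates were close together in both genotypes, and the log2 difference was 0.91 ± 0.11 (SE, adjusted p = 6.7e-05 in edgeR's test). RPL34 (AT1G29070) varied more among the Col-0 libraries, at 38.4, 61.0 and 45.6 CPM, than among the mutant libraries, at 91.2, 93.7 and 85.0 CPM. The highest Col-0 value was that of replicate 2. Its log2 difference was 0.90 ± 0.16 (SE, adjusted p = 0.0010 in edgeR's test).

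RPL29 (AT5G65220), which in bacteria sits near the mouth of the exit tunnel, had the highest level per length of the large-subunit genes. It was at 146, 133 and 131 CPM in Col-0 and at 246, 230 and 256 CPM in amiR-mterf2, or 164 and 293 CPM per kb of exon. The log2 difference was 0.84 ± 0.10 (SE, adjusted p = 8.5e-05 in edgeR's test).

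The large-subunit member that did not pass the threshold was RPL1 (AT3G63490), which encodes the protein of the L1 stalk beside the tRNA exit site. It was at 77.1, 76.7 and 84.9 CPM in Col-0 and at 92.1, 91.5 and 107 CPM in amiR-mterf2. The mutant libraries were again the 3 highest, but the log2 difference was 0.29 ± 0.11 (SE), with an adjusted p of 0.063 in edgeR's test. It passed without Col-0 replicate 2 (adjusted p = 0.0062) and with TMM factors from nuclear genes (adjusted p = 0.044). The lowest differences among the members that rose were those of RPL11 (0.38), RPL27 (0.40) and RPL24 (0.44) of the large subunit and RPS1 (0.33) and RPS20 (0.45) of the small subunit. Each of these 5 lost its call under total counts.

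The small subunit contributed 8 of 8 tested members that rose, with a median log2 difference of 0.76. Its summed level was 556, 586 and 542 CPM in Col-0 and 927, 890 and 908 CPM in amiR-mterf2. The ratio of large-subunit to small-subunit sums was 2.53 to 2.59 in Col-0 and 2.60 to 2.69 in amiR-mterf2. These sums thus moved by much the same factor (1.67 and 1.62). They leave out the 5 plastid-specific members, which include proteins of either subunit and whose own sum moved by a factor of 2.30. The balance of the subunits with those members included was not compared.

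RPS21 (AT3G27160), also known as GHS1 for the glucose-hypersensitive mutant of this gene, was at 56.5, 67.2 and 54.2 CPM in Col-0 and at 111, 108 and 112 CPM in the mutant. Its log2 difference was 0.89 ± 0.11 (SE, adjusted p = 0.00011 in edgeR's test), with no overlap between genotypes. RPS1 (AT5G30510), which binds messenger RNA, stood at the other end of the small subunit. It was at 124, 120.1 and 124 CPM in Col-0 and at 162, 155 and 147 CPM in amiR-mterf2, and the log2 difference was 0.33 ± 0.10 (SE, adjusted p = 0.020 in edgeR's test).

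Each of the 5 plastid-specific members rose, with a median log2 difference of 0.63. One of them, AT5G24490 (chr5:8365601-8367460, plus strand), had the widest difference of the whole set and, averaged over both genotypes, the highest level per length. RefSeq annotates it as a 30S ribosomal protein and gives it no symbol. It was at 207, 143 and 217 CPM in Col-0 and at 545, 502 and 537 CPM in amiR-mterf2. Col-0 replicate 2 was the lowest library, and the lowest mutant library was still far above the highest Col-0 library. The log2 difference was 1.48 ± 0.15 (SE, adjusted p = 2.2e-05 in edgeR's test), and 1.32 without Col-0 replicate 2. Per kb of exon its mean level was 146 CPM in Col-0, below that of RPL29, and 407 CPM in amiR-mterf2, above it.

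AT5G24490 rose further than the rest of the set. It made up 9.04, 6.03 and 9.52% of the members' summed CPM in Col-0 and 13.3, 12.7 and 13.1% in amiR-mterf2. The log2 ratio of AT5G24490 to the sum of the other members was -3.51 ± 0.39 for Col-0 and -2.73 ± 0.04 for the mutant (mean ± SD, n = 3 each), a difference of 0.78. A two-sided exact permutation test over the libraries gave p = 0.1, again the smallest possible, and this ratio was chosen after the values were seen. Most of the spread in Col-0 came from replicate 2, without which the difference was 0.56. With all libraries, the other 35 tested members had a median log2 difference of 0.69. The lead over the next member was small without Col-0 replicate 2: 1.32 for AT5G24490 and 1.23 for RPL12-C on the log2 scale.

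The remaining plastid-specific genes moved like the core proteins. PSRP2 (AT3G52150), an RNA-binding protein with RRM motifs, was at 43.1, 41.5 and 48.0 CPM in Col-0 and at 77.3, 73.8 and 70.5 CPM in amiR-mterf2 (log2 difference 0.74 ± 0.11 SE). PSRP3 (AT1G68590), of the Ycf65 family, was at 34.9, 31.2 and 34.0 CPM in Col-0 and at 51.3, 46.5 and 56.8 CPM in the mutant (0.63 ± 0.12 SE). PSRP4 (AT2G38140), a small-subunit protein, was at 40.9, 46.4 and 36.7 CPM in Col-0 and at 66.5, 60.9 and 61.3 CPM in amiR-mterf2 (0.61 ± 0.12 SE). None of these genes had overlapping groups. PSRP5 (AT3G56910), a protein of the large subunit, was at 8.0, 8.9 and 8.1 CPM in Col-0 and 13.3, 12.3 and 11.4 CPM in amiR-mterf2 (0.56 ± 0.13 SE). In edgeR's test the adjusted p of these genes ran from 0.00031 for PSRP2 to 0.0071 for PSRP5.

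**Figure D2:**
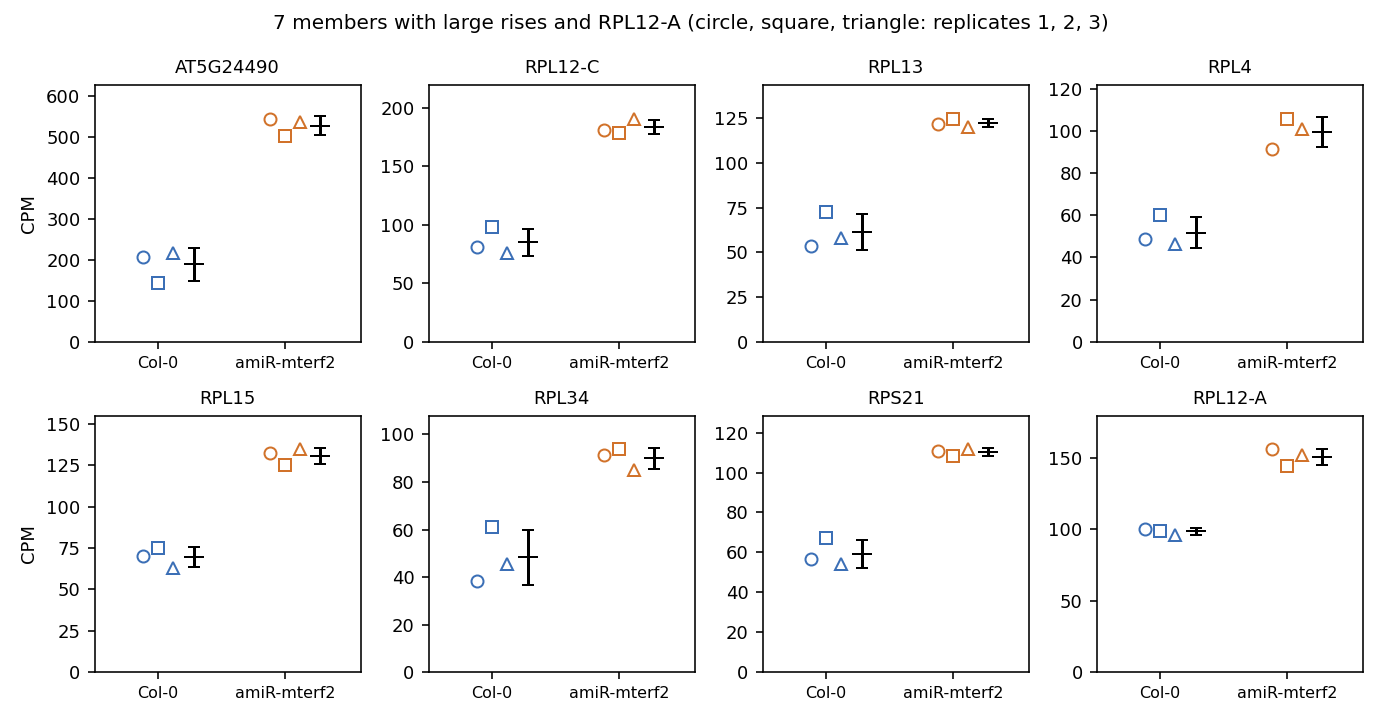
CPM of 7 members with large rises and of RPL12-A in each library (y axes from 0); circles, squares and triangles are replicates 1, 2 and 3, and black bars give the mean ± SD of 3 libraries. AT5G24490 went from 143 to 217 CPM in Col-0 to between 502 and 545 CPM in amiR-mterf2, and in each panel the mutant libraries are above the Col-0 libraries.

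Members differed widely in level, and the lowest of those tested shared a feature of position: exons of other genes in TAIR10.1 overlap them. The lowest per kb of exon were RPL10, RPL28 and PSRP5, which were overlapped over 69.2, 68.0 and 36.4% of exon length. RPL10 (AT5G13510), whose bacterial homologue anchors the L12 stalk, was at 6.6, 7.6 and 5.5 CPM in Col-0 and at 9.2, 9.0 and 8.8 CPM in amiR-mterf2. The mutant libraries were higher throughout, with a log2 difference of 0.46 ± 0.16 (SE, adjusted p = 0.046 in edgeR's test), a call lost under 10 of 13 alternative settings. RPL28 (AT2G33450) was at 7.5, 5.7 and 7.1 CPM in Col-0 and at 11.3, 10.4 and 11.2 CPM in amiR-mterf2 (0.69 ± 0.15 SE). By contrast, the 21 members with no overlap lay between 33.5 and 228 CPM per kb of exon, averaged over both genotypes, whereas RPL10 and RPL28 were at 9.32 and 11.9.

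Among other genes, only extensive overlap went with low counts. Of 19821 nuclear protein-coding genes without overlap, 18.9% had 0 counts in all libraries and the median level was 1.13 CPM per kb of exon. Genes overlapped over 10 to under 60% of exon length had fewer zeros (9.40%) and a higher median (1.61), as had those with an overlap above 0 and under 10% (3.31% and 3.13). Of genes overlapped over 60 to under 100%, 50.7% had 0 counts, and of 368 genes overlapped along their whole exon length 361 (98.1%). Whether the counting used strand, and whether it left out reads that fall on more than 1 gene, is not given in the sources used here. The levels of RPL10 and RPL28, in the class of 60 to under 100%, are therefore uncertain. PSRP5 and AT5G24490 both belong to the class of 10 to under 60%, which as a whole was not low. The differences between genotypes did not rest on these genes: among the 27 members with less than 10% overlap, 27 rose, with a median log2 difference of 0.77.

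**Figure D3:**
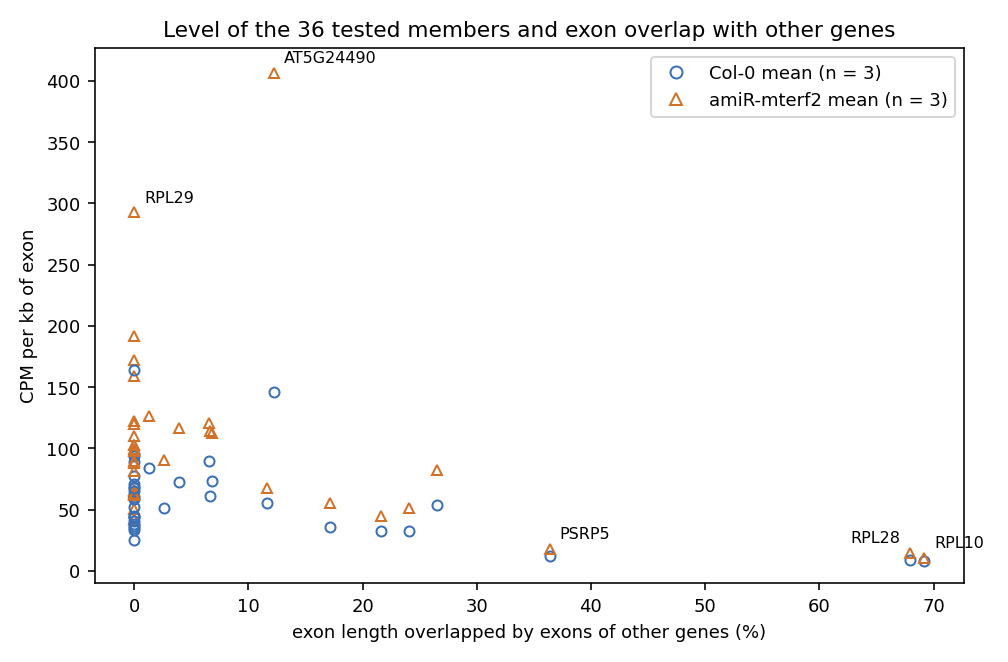
Mean CPM per kb of exon (y axis) of each of the 36 tested members in Col-0 (blue circles, n = 3) and amiR-mterf2 (orange triangles, n = 3) against the percentage of its exon length overlapped by exons of other genes in TAIR10.1 (x axis). RPL10, RPL28 and PSRP5 stay under 20 CPM per kb, and AT5G24490 is highest in amiR-mterf2 at 407 CPM per kb.

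Across the 36 tested members, the log2 difference and the log2 of the mean level were correlated at r = 0.43. The points share the same libraries and are genes rather than replicates, so this is a description only.

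The plastid-encoded ribosomal protein genes served as background. Of 26 such genes, 24 could be tested and 24 rose, against 18.1% of all tested genes. The median log2 difference of the 24 was 2.06, with a range of 0.90 to 2.48. The genes rpl23.1 and rpl23.2 had too few counts. Genes with copies in the inverted repeat (rpl2, rpl23, rps7 and part of rps12) share reads between copies and are uncertain, but the 18 genes outside it had a median of 2.00. The gene rps15 had the widest difference, from 67.8, 59.8 and 66.2 CPM in Col-0 to 357, 360 and 368 CPM in amiR-mterf2 (2.48 ± 0.10 SE, adjusted p = 6.0e-08 in edgeR's test). The gene with the highest CPM, rps14, had the smallest one (0.90 ± 0.12 SE), from 2790, 3273 and 2783 CPM to 5309, 6417 and 4753 CPM. Since plastid transcripts are mostly polycistronic, counts on one plastid gene include precursors that span several. For rps12 the paper reports impaired splicing of its trans-spliced intron in this mutant, with precursors above wild-type levels. Exon counts on the rps12 loci therefore do not measure spliced message alone. The paper reports higher levels in this mutant for many other plastid genes as well, so a rise was not particular to the ribosomal protein genes.

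Plastid and nuclear contributions thus moved in the same direction by different amounts. The ratio of the summed CPM of plastid-encoded to nuclear-encoded ribosomal protein genes was 3.39, 3.15 and 3.37 in Col-0 and 5.50, 6.18 and 5.37 in amiR-mterf2. The groups were separate, and the mean ratio was 1.72 times higher in the mutant. Without rps14 the ratio went from 2.03 ± 0.22 to 4.32 ± 0.20 (SD, n = 3).

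**Figure D4:**
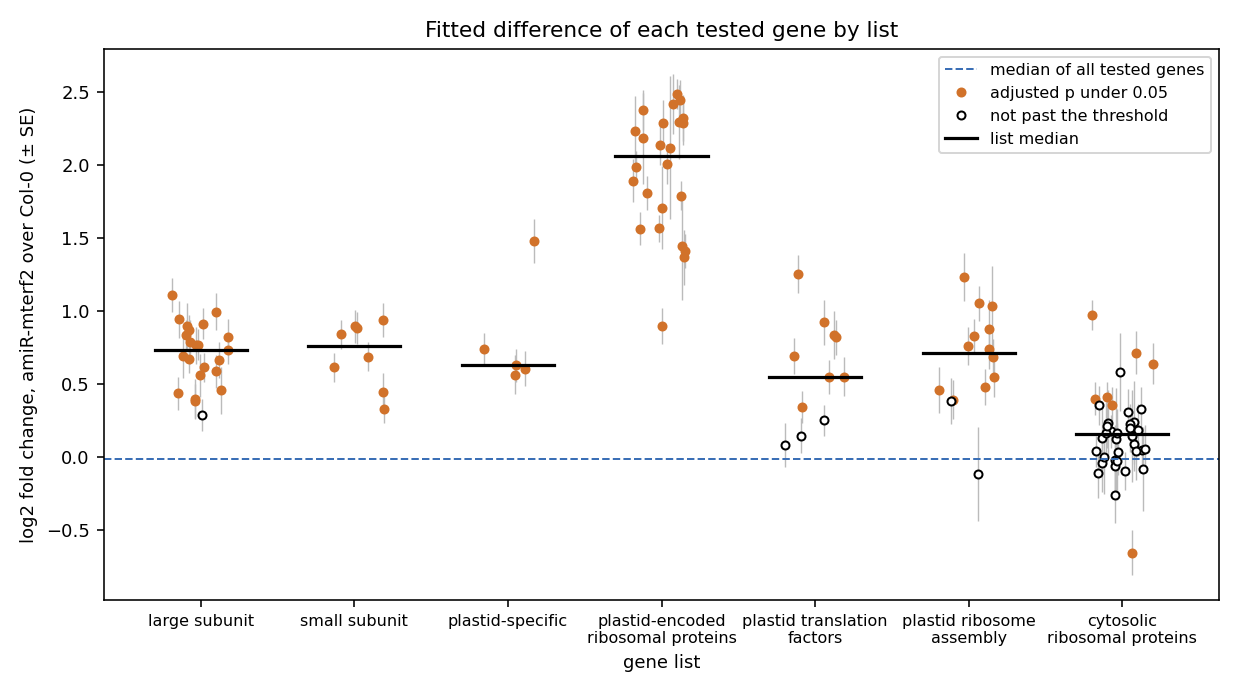
Log2 fold change of amiR-mterf2 over Col-0 (y axis, ± SE from edgeR's quasi-likelihood test) for each tested gene of 7 lists; filled orange points passed the threshold, open points did not, black bars are list medians and the dashed line is the median of all tested genes. The nuclear-encoded members lie between 0.29 and 1.48, below most of the plastid-encoded genes with their median of 2.06. The cytosolic ribosomal proteins had a lower median of 0.16 (0.40 without Col-0 replicate 2). They ranged from -0.65 to 0.97 and so overlap the members.

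Other nuclear genes of plastid translation were higher too. Of 12 translation factors, 11 could be tested, 8 rose and 0 fell, against 18.1% and 18.2% of all tested genes. The median log2 difference of the 11 was 0.55. An elongation factor P family gene (AT3G08740) had the widest difference, from 15.8, 15.5 and 12.7 CPM to 36.5, 31.8 and 36.4 CPM (1.25 ± 0.13 SE, adjusted p = 2.6e-05 in edgeR's test). SCO1 (AT1G62750), the plastid elongation factor G, had the highest CPM of this list and was at 216, 175 and 217 CPM in Col-0 and at 254, 264 and 253 CPM in the mutant (0.34 ± 0.11 SE, adjusted p = 0.032 in edgeR's test). Under total counts, 5 translation factors rose, against 11.9% of all genes.

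Among 14 genes for plastid ribosome assembly and ribosomal RNA maturation, 12 rose and 0 fell, against 18.1% and 18.2% of all tested genes. The median log2 difference of the 14 was 0.71. The widest was AT5G63420, annotated as an RNA-metabolising metallo-beta-lactamase, from 13.3, 9.3 and 15.3 CPM to 29.9, 31.1 and 28.3 CPM (1.23 ± 0.17 SE, adjusted p = 0.00018 in edgeR's test). The highest CPM was that of the RimM family gene AT5G46420, from 55.2, 43.1 and 53.3 CPM to 73.1, 65.3 and 73.4 CPM (0.48 ± 0.12 SE, adjusted p = 0.0100 in edgeR's test).

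The 38 listed genes for ribosomal proteins of the cytosol behaved differently between libraries. Of 38 tested genes, 6 rose and 1 fell, against 18.1% and 18.2% of all tested genes. The median log2 difference of the 38 was 0.16, but the count of rises rested on Col-0 replicate 2. The summed level of these genes was 1830 CPM in that library, 1226 and 1222 CPM in the other Col-0 libraries and 1666 to 1752 CPM in amiR-mterf2. Without Col-0 replicate 2, 27 of 38 rose, against 22.1% of all genes, and 1 fell, with a median of 0.40. RPL10C (AT1G66580) had the largest rise with all libraries, 0.97 ± 0.10 on the log2 scale (SE, adjusted p = 3.0e-05 in edgeR's test). RPL3B (AT1G61580) was the gene that fell (-0.65 ± 0.15 SE, adjusted p = 0.0062 in edgeR's test). RPL3A (AT1G43170) had the highest CPM of the list and rose by 0.72 ± 0.15 on the log2 scale (SE, adjusted p = 0.0031 in edgeR's test).

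The GOLDEN2-LIKE transcription factors, which activate photosynthesis genes in the nucleus, went the other way. GLK1 (AT2G20570) was at 57.4, 62.7 and 57.3 CPM in Col-0 and at 10.6, 9.4 and 8.9 CPM in amiR-mterf2 (log2 difference -2.62 ± 0.12 SE, adjusted p = 1.2e-07 in edgeR's test). GLK2 (AT5G44190) was at 19.9, 19.6 and 18.8 CPM in Col-0 and at 5.1, 4.1 and 5.2 CPM in the mutant (-2.01 ± 0.14 SE, adjusted p = 1.7e-06 in edgeR's test).

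Because the members moved together, the 250 bases before each annotated gene start were read from TAIR10.1 (RefSeq) and searched on both strands. The site II core TGGGCC is a promoter element of many plant genes for ribosomal proteins. It was present before 11 of the 37 members (29.7%), 13.7% of all 27443 nuclear protein-coding genes and 17.3% of those tested. It was also before 47.4% of the 38 listed cytosolic ribosomal protein genes. It was before 6 of 9 small-subunit genes and 4 of 23 large-subunit genes. Of its 18 occurrences in the set, 15 lay within 125 bases of the start. The telo-box letters AAACCCTA were present before 4 members (10.8%, against 4.49% of all genes and 3.50% of those tested). The G-box CACGTG was present before 3 members (8.11%, against 6.49% and 7.51%) and CCAATC, letters bound by GLK proteins, before 4 (10.8%, against 10.2% and 10.6%). None of these motifs contains another, and the GGCC within TGGGCC is its own reverse complement. The 10 tested members with TGGGCC had a median log2 difference of 0.83, and the 26 without it 0.65. The members that rose most, AT5G24490, RPL12-C, RPL13 and RPL4, were among those without it. The 38 listed cytosolic ribosomal protein genes, with the larger share of 47.4%, had a median of 0.16. A link between the motif and the rise was not tested.

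The windows of 3 members are shown, none of which overlaps another annotated gene. They are those of 2 members with TGGGCC and that of AT5G24490, the gene that rose most, which has none of the 4 motifs. Capitals mark TGGGCC on either strand, each window runs 5′ to 3′ on the strand of its gene, and the last base is the one before the annotated start. The windows are chr3:4221667-4221916 (minus strand) for RPS10, chr3:19341764-19342013 (plus strand) for PSRP2 and chr5:8365351-8365600 (plus strand) for AT5G24490.
RPS10: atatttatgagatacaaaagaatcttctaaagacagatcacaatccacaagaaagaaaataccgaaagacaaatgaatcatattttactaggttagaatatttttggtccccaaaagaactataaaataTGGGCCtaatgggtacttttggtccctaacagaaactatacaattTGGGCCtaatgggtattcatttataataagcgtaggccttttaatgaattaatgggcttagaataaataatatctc
PSRP2: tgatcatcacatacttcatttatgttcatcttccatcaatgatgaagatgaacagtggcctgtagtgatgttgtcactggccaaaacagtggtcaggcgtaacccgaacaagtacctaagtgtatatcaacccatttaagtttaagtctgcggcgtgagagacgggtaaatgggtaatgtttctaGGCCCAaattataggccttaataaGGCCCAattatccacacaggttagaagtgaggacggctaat
AT5G24490: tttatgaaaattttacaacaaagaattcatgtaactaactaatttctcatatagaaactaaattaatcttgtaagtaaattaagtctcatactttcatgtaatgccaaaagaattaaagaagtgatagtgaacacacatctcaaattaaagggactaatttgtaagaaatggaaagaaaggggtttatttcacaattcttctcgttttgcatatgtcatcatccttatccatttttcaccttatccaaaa
RPS10, with 2 occurrences of TGGGCC in its window, was at 53.9, 54.6 and 54.9 CPM in Col-0 and at 98.0, 96.4 and 97.8 CPM in the mutant. Its log2 difference of 0.84 was below the 1.48 of AT5G24490.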

How the data were processed

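RNA-Seq read pairs from rRNA-depleted RNA of 3 Col-0 and 3 amiR-mterf2 seedling samples were processed by the authors, who deposited unnormalized read counts over the exons of each gene. The file headers name HISAT2, whereas the submitters' processing notes name TopHat2 2.1.1 with Trimmomatic, FastQC, featureCounts and the TAIR10 genome. Strand, reads with several matches and the counting of pairs are not given in the sources used here.

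Counts were filtered with filterByExpr (minimum count 10, minimum total 15) and scaled by TMM in edgeR 4.0.16 (R 4.3.3). The genotype term was tested by the quasi-likelihood F-test of edgeR, with p adjusted by Benjamini-Hochberg across 17902 genes (threshold 0.05). SE was derived as the log2 fold change over the root of F. The ratios of RPL12-C to RPL12-A and of AT5G24490 to the sum of the other members were compared by exact permutation. Alternatives were other scalings and filters, DESeq2 1.42.0, a replicate block and leaving out each library. Between 18004935 and 21832003 counts per library bound the precision, and floors cover counting error only.

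Coordinates, exon overlaps and sequences come from RefSeq TAIR10.1, which held 36632 of 36917 identifiers (Python 3.11.15, Biopython 1.88). Values in full were given for the 8 largest rises (no member fell), the plastid-specific members, RPL12-A and RPL12-C, and the 2 highest and 2 lowest members per kb; of other lists the largest rise, the largest fall and the gene with the highest CPM. RPL1, RPS1, RPL28 and RPS10 were added after their values were seen. Some items that this rule names are not reported here. The members and lists were chosen with earlier results of these data known.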

Additional observations from a re-analysis of the deposited data

How the results depend on the processing

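In each of 13 alternative settings the tested members had positive log2 differences and none fell. Their count of rises was 29 to 36 when 1 library was left out in turn, and their median difference 0.68 to 0.75. The plastid-encoded count stayed at 24 in each of these. Leaving out a library gave 7 to 9 translation factors, 9 to 11 assembly genes and 4 to 27 cytosolic ribosomal proteins that rose. The 27 were without Col-0 replicate 2, where 22.1% of all genes rose. Total counts without TMM gave a member median of 0.56, 5 translation factors and 3 cytosolic ribosomal proteins, with 11.9% of all genes higher. The median of all genes was then -0.17, against -0.015 with TMM, which assumes that most genes do not change. Of the 35 calls on members, 28 held in all 13 settings, and 7 (RPL10, RPL11, RPL24, RPL27, RPL35, RPS1 and RPS20) were lost in 1 or more. Same-numbered libraries did not deviate together (correlations of 0.027, 0.016 and -0.011), and with the replicate number as a block 34 members rose, RPL10 being lost. Depth limits MTERF2, which had few counts.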
